A study of Mus musculus with 20 samples.

Results

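The genes described here mark the cells that come before myelin in the oligodendrocyte lineage. The set holds 10 genes named by a list, Pdgfra, Cspg4, Ptprz1, Tnr, Vcan, Gpr17, Bcas1, Enpp6, Bmp4 and Itpr2, out of 29200 genes in the count table, and all 10 were found in it. They were followed in the cerebellum of 20 mice of the C57BL6/N strain, with 5 mice in each of 4 groups. The WT/WT mice had unexpanded ataxin-3 in both alleles and were studied at 2 months and at 12 months of age. The 304Q/304Q mice of the same ages carried, in both alleles of the endogenous mouse Atxn3 gene, an interrupted CAACAG repeat, which the study made as a knock-in model of spinocerebellar ataxia type 3. All 304Q/304Q mice go back to 1 knock-in line, the study used males, and no group received a treatment. The sample labels name ataxin-2 for the WT/WT alleles, while the study's methods describe Atxn3. Each library was made from the polyA RNA of 1 whole cerebellum, so that the RNA of all its cell types was measured together.

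Oligodendrocyte precursor cells stay in the adult brain and can divide, and they carry the PDGF alpha receptor and the NG2 proteoglycan on their surface. A precursor that leaves the cell cycle passes through a short premyelinating stage, marked by Gpr17, Bcas1 and Enpp6, before it wraps axons and makes myelin proteins such as Mbp. Premyelinating cells are known to be most frequent in the young brain, while most myelin is laid down.

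Between 11385380 and 27636687 reads per mouse were counted on genes. The highest total belonged to replicate 1 of the 304Q/304Q mice at 2 months, and all others were at most 16606406. Read counts of the repeat gene Atxn3 itself do not show the repeat. At 2 months the mean was 278 ± 42.1 normalized counts in WT/WT against 192 ± 30.9 in 304Q/304Q mice (SD, n = 5). The highest 304Q/304Q mouse, at 240.6, was just above the lowest WT/WT mouse, at 239.9. Every other 304Q/304Q mouse of 2 months lay below all WT/WT mice. The difference was -0.54 on the log2 scale (95% interval -0.78 to -0.30, adjusted p = 0.0916 in the quasi-likelihood fit of edgeR). At 12 months the means were 222 ± 16 and 203 ± 17.6, the genotypes overlapped, and the difference was -0.13 (adjusted p = 0.510). RNA of the choroid plexus, the epithelium that makes cerebrospinal fluid, was above 100 CPM (counts scaled to 1 fixed library total, summed over 5 marker genes) in 6 libraries, of which 1 was from 304Q/304Q mice at 2 months, 3 from WT/WT mice at 12 months and 2 from 304Q/304Q mice at 12 months. A normalized count is a gene's count scaled to the mean library size, and all replicates of a group differed by more than the sampling noise. The labels give no litter or batch, so p-values measure the spread between the mice of these groups.

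The 10 genes were present at very different levels. Per kilobase of exon, Bcas1, a protein of premyelinating and early myelinating oligodendrocytes, was the highest, with a mean level of 52.4 ± 4.94 CPM per kb over the 20 mice (SD). Ptprz1, a receptor tyrosine phosphatase that binds pleiotrophin, was the second with 26.2 ± 2.94 CPM per kb, and Tnr, the extracellular matrix glycoprotein tenascin-R, was the third with 12.7 ± 1.73. The order of these 3 was the same in 20 of 20 mice, and their ranges did not overlap. Gpr17, a G protein-coupled receptor of committed precursors, followed at 3.19 ± 1.16 CPM per kb, and its range from 1.5 to 5.11 overlapped with that of the next gene. Pdgfra, the receptor for PDGF-A, came next at 1.98 ± 0.151, then Vcan, the proteoglycan versican, at 1.84 ± 0.243 and Enpp6, a choline-specific phosphodiesterase, at 1.68 ± 0.478 CPM per kb. The lowest levels were those of the secreted ligand Bmp4 (1.32 ± 0.495), the endoplasmic reticulum calcium channel Itpr2 (1.32 ± 0.181) and Cspg4, the NG2 proteoglycan (0.899 ± 0.169 CPM per kb). From Gpr17 down, the ranges of all neighbours in this order overlapped.

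**Figure D1:**
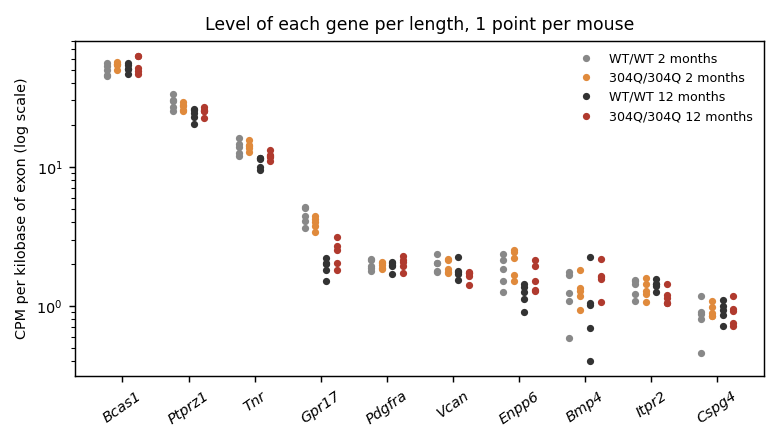
Level of the 10 genes in CPM per kilobase of exon on a log axis, 1 point per mouse, coloured by the 4 groups of 5 mice. Bcas1, Ptprz1 and Tnr stand apart from each other and from the rest, and within Gpr17 the groups of 12 months lie below those of 2 months.

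Bcas1, Tnr and Ptprz1 are also made by other cells, mature oligodendrocytes, interneurons and astrocytes among them, and Cspg4 and Pdgfra by pericytes and fibroblasts of the vessels and meninges. Markers of all these cells were present in every library, and of the 55 markers checked only Folr1 of the choroid plexus was at 0 in a library. Exons of Gpr17, Bcas1, Pdgfra, Tnr and Bmp4 overlap with genes on the opposite strand, and whether the counting used the strand is not given in the sources used here, so that their values may hold reads of these partners. In RNA of a whole tissue, fewer cells of a type and less RNA per cell cannot be told apart.

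The largest change in the set was a fall of Gpr17 between 2 and 12 months, and it was seen in both genotypes. Gpr17 (chromosome 18, 31942997 to 31949636 of GRCm38, minus strand) had 371, 377, 326, 269 and 303 normalized counts in the 5 WT/WT mice at 2 months and 135, 111, 151, 148 and 163 at 12 months. In the 304Q/304Q mice the values were 326, 249, 277, 309.6 and 296 at 2 months and 134, 199, 186, 150.4 and 232 at 12 months. Every older mouse lay below every younger mouse of its genotype, although the highest 304Q/304Q mouse of 12 months came near to the lowest of 2 months. In WT/WT mice Gpr17 fell by 1.22 on the log2 scale (SE 0.137, adjusted p = 4.36e-06 in the quasi-likelihood fit of edgeR, Benjamini-Hochberg adjusted over 12153 genes), to 0.430 of its level at 2 months with a 95% interval from 0.353 to 0.523. In 304Q/304Q mice it fell by 0.70 (SE 0.134, adjusted p = 0.00133), to 0.617 with an interval from 0.509 to 0.748. Lims2, the opposite-strand gene whose exons overlap with Gpr17, changed by -0.13 (adjusted p = 0.592) in WT/WT and by -0.00089 (adjusted p = 0.999) in 304Q/304Q mice. Without the 6 libraries with choroid plexus RNA, the Gpr17 changes were -1.14 (adjusted p = 0.00196) and -0.61 (adjusted p = 0.0298).

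**Figure D2:**
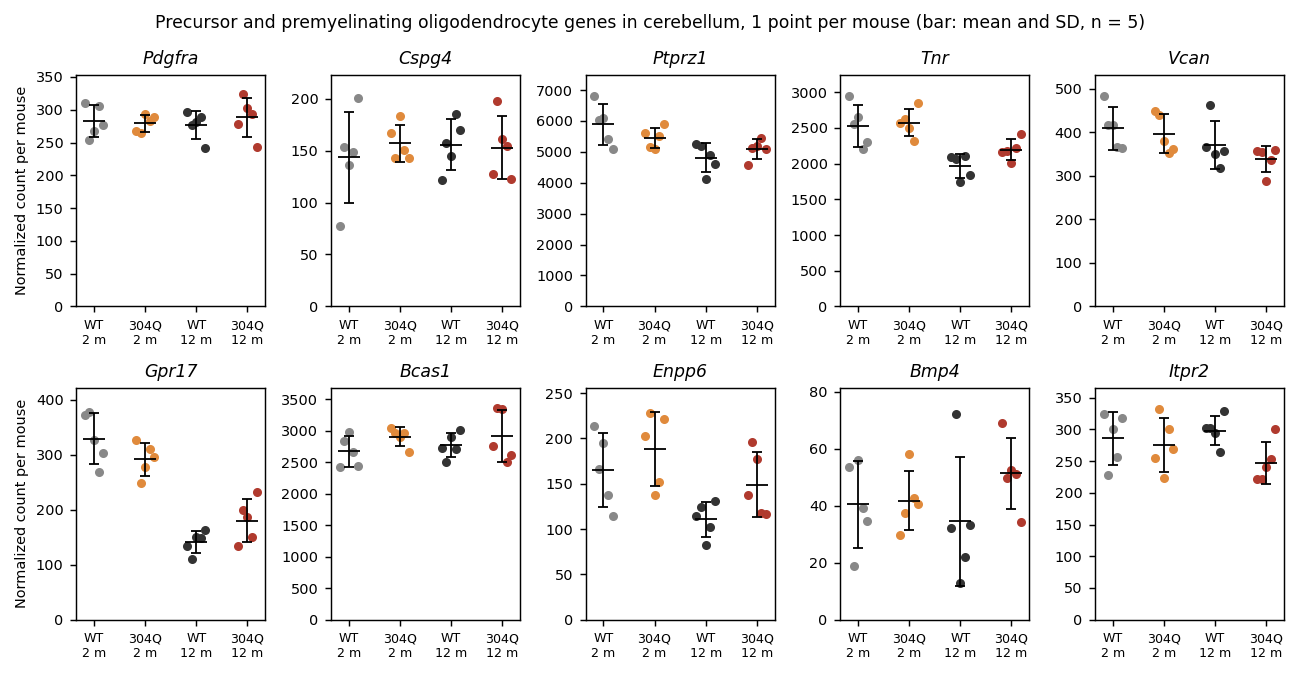
Normalized counts of the 10 genes, 1 point per mouse, with the mean and SD of the 5 mice of each group, WT standing for WT/WT and 304Q for 304Q/304Q, at 2 and 12 months (m). Gpr17 lies lower at 12 than at 2 months in both genotypes with no overlap, whereas the values of 304Q/304Q and WT/WT mice of the same age overlap in all 10 panels.

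In WT/WT mice, 2 other genes of the set fell with age, the matrix protein Tnr and the surface protein Ptprz1, which precursor cells share with other cells. Tnr (chromosome 1, 159523769 to 159931729) had 2948, 2549.6, 2652, 2204 and 2309 normalized counts at 2 months and 2099, 2065, 1746, 2109 and 1837 at 12 months. All the older mice were below all the younger ones, by a margin smaller than the spread within either age. Tnr fell by 0.36 on the log2 scale (SE 0.0740, adjusted p = 0.00326). Ptprz1 (chromosome 6, 22875502 to 23052916) had 6812, 6029, 6079.9, 5424 and 5107 normalized counts at 2 months and 5270.1, 5175, 4118, 4907 and 4614 at 12 months. The 2 ages overlapped, with the lowest young mouse under the highest older ones, and the fall was 0.29 (SE 0.0727, adjusted p = 0.0123). Removing the trend with GC content and gene length brought the change of Tnr to -0.18 (adjusted p = 0.0381) and ended the call of Ptprz1 (-0.10, adjusted p = 0.206), as did surrogate variables (-0.16, adjusted p = 0.083 in edgeR).

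In all, 3 of the 9 genes tested passed the adjusted p of 0.05 for age in WT/WT mice, where 11.5% of all tested genes did, and all 3 were lower at 12 months, as 5.42% of all genes were by this test. Only Gpr17 also reached a log2 fold change of 0.5 in size, which defines a DEG, as did 2.58% of all genes. Gpr17 and Tnr were the 2 genes without overlap of the ages, against 6.57% of all genes, and in both the older mice were the lower ones, as for 2.93% of all genes. In 304Q/304Q mice 1 of 9 genes, Gpr17, passed the adjusted p (7.26% of all genes), was a DEG (2.28%) and did not overlap between the ages (7.8%). Tnr in these mice had 2569, 2621, 2499.6, 2321 and 2843 normalized counts at 2 months and 2167, 2173, 2016, 2217 and 2415 at 12 months. Here 1 mouse of 12 months lay above the lowest of 2 months, so the ages overlapped, and the change was -0.23 (SE 0.0737, adjusted p = 0.0646). Ptprz1 in 304Q/304Q mice changed by -0.10 (SE 0.0727, adjusted p = 0.502), with values from 5089.8 to 5907 at 2 months and from 4574 to 5442 at 12 months.

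Tnr in 304Q/304Q mice passed the threshold in DESeq2 (adjusted p = 0.0449), with surrogate variables in DESeq2 (adjusted p = 0.00836) and in edgeR (adjusted p = 0.0147), in a fit of only the 10 mice compared (adjusted p = 0.0241) and after removal of the GC and length trend (adjusted p = 0.00444). It also passed without replicate 1 (adjusted p = 0.0375) or 4 (adjusted p = 0.0469) of the WT/WT mice of 2 months, which add to the shared estimate of spread, and without replicate 4 of the 304Q/304Q mice of 2 months (adjusted p = 0.0417) or replicate 5 of those of 12 months (adjusted p = 0.0364). Whether the falls with age differed between the genotypes was tested as an interaction, and 0 of 9 genes passed it by edgeR, where 1.95% of all genes did. Gpr17 was the 1 gene of the set with an unadjusted p under 0.05 for the interaction, which 15.9% of all genes had. Its difference between the genotypes in the change with age was 0.52 (SE 0.192, 95% interval 0.13 to 0.92, adjusted p = 0.179). For Ptprz1 this difference was 0.19 (SE 0.103, adjusted p = 0.369) and for Tnr 0.13 (SE 0.104, adjusted p = 0.541).

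**Figure D3:**
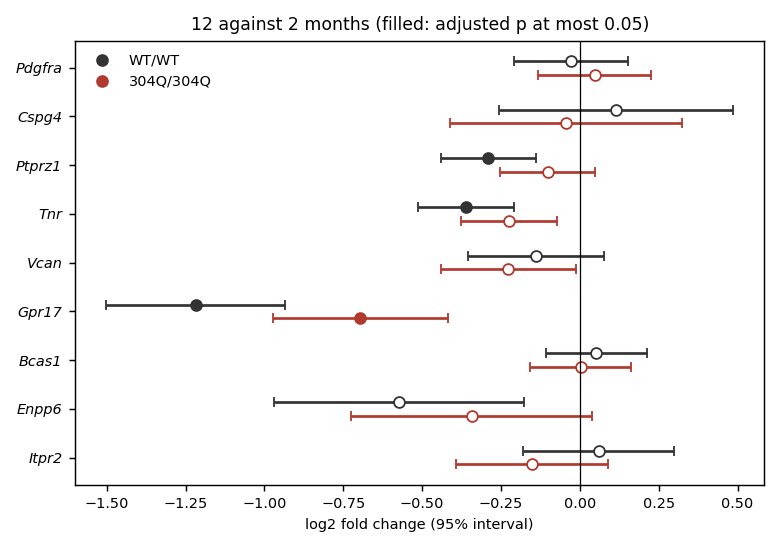
Log2 fold change from 2 to 12 months of the 9 genes tested, with its 95% interval, in WT/WT and 304Q/304Q mice, a filled point marking an adjusted p of at most 0.05. Gpr17 is filled at -1.22 and -0.70, and Tnr and Ptprz1 are filled in WT/WT mice only, where the difference between genotypes did not pass its test.

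The promoters of Tnr and Ptprz1, the 2 genes that passed for age in WT/WT mice and have an entry in the RefSeq promoter table of GRCm38.p6, are shown because the genes fell together and had the most alike profiles in the set. Each line runs 5′ to 3′ from 250 bases before to 50 bases after the transcription start, and capitals mark CG dinucleotides. Both lie on the plus strand, at chr1:159523519-159523818 and chr6:22875252-22875551.
Tnr: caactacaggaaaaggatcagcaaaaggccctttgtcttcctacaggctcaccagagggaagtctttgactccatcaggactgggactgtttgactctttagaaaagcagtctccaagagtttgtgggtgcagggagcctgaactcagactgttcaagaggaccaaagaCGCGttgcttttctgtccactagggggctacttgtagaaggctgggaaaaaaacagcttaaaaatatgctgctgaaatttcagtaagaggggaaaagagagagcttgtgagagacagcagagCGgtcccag
Ptprz1: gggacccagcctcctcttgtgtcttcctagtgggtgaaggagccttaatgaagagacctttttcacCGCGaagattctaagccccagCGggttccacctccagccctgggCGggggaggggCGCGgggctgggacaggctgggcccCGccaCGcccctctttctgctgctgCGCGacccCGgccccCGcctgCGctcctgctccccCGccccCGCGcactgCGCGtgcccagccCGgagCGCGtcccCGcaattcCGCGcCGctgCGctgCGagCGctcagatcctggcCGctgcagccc
The Tnr promoter holds 3 CG dinucleotides in 48.0% GC, and that of Ptprz1 holds 29 in 71.7% GC, where the median of 32851 promoters of the same length is 7 CG dinucleotides. The letters ACAATG or their reverse complement CATTGT, which Sox factors can read, stand in 12.6% of these promoters. Of the 8 promoters found for the set only that of Enpp6 has them, 219 bases before the start. The palindromic letters CAGCTG, which basic helix-loop-helix factors such as Olig2 can read, stand in 16.3% of all promoters and in 0 of the 8. Gpr17 and Bcas1 had no entry. These matches describe letters in a short window and not binding.

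Within the groups, Tnr and Ptprz1 had the highest correlation of the 36 pairs of tested genes in the set, with r = 0.73 over the 20 libraries after the group means of log2 CPM were removed. The lowest was that of Tnr and Cspg4 at -0.55, and Gpr17 did not exceed 0.33 with any other gene of the set. These points share library depth and composition. Over all tested genes, the profile of Tnr was most like those of Apc, Tnrc6b and Lpp (r = 0.92, 0.92 and 0.91) and that of Ptprz1 most like those of Slitrk1, Dennd5b and Rc3h1 (0.91, 0.90 and 0.90). The nearest to Gpr17 were Gm3294, Ist1 and Slc2a4rg-ps (0.80, 0.80 and 0.79). For the remaining 6 genes the best match had r between 0.78, for Pdgfra with Aqp11, and 0.88, for Vcan with Zfp827.

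The remaining genes of the precursor stage did not pass the test for age in either genotype. Pdgfra was almost level, at 283 ± 24.5 and 277 ± 20.9 normalized counts in WT/WT mice of 2 and 12 months and 279 ± 13.0 and 288 ± 29.8 in 304Q/304Q mice (SD, n = 5). Its change with age had a 95% interval from 0.865-fold to 1.11-fold in WT/WT and from 0.912-fold to 1.17-fold in 304Q/304Q mice. Cspg4 had 144 ± 44.1 and 156 ± 24.4 normalized counts in WT/WT and 157 ± 17.7 and 153 ± 30.4 in 304Q/304Q mice of 2 and 12 months. In it 1 young WT/WT mouse, at 77.7, lay below all the others. Its intervals were wider, from 0.837-fold to 1.40-fold and from 0.751-fold to 1.25-fold. Vcan had 409 ± 49.1 and 371 ± 54.7 in WT/WT and 397 ± 44.5 and 339 ± 29.8 in 304Q/304Q mice, a change of -0.14 (adjusted p = 0.400) and of -0.23 (adjusted p = 0.227).

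Of the premyelinating genes, Enpp6 was near the threshold for age. It had 214, 167, 195, 138 and 114 normalized counts in WT/WT mice at 2 months and 115, 124, 82.3, 102 and 131 at 12 months. Most older mice were below most younger ones, but 1 young mouse lay among the older. The change was -0.57 (SE 0.191, adjusted p = 0.0526) in WT/WT mice and -0.34 (SE 0.185, adjusted p = 0.329) in 304Q/304Q mice. In WT/WT mice Enpp6 passed in DESeq2 (adjusted p = 0.0236), without a filter on low counts (adjusted p = 0.0468) and after thinning to the lowest total (adjusted p = 0.0495). It also passed without any 1 of 6 libraries, with adjusted p from 0.0193 without replicate 5 of the WT/WT mice of 2 months to 0.0497 without replicate 5 of the 304Q/304Q mice of 12 months. The other 4 were replicate 4 of the WT/WT and replicate 3 of the 304Q/304Q mice of 2 months, and replicate 1 of the WT/WT and replicate 2 of the 304Q/304Q mice of 12 months. Bcas1 stayed within narrow limits, with a change of 0.05 (95% interval -0.11 to 0.21) in WT/WT and 0.0032 (-0.16 to 0.16) in 304Q/304Q mice. Itpr2 changed by 0.06 (adjusted p = 0.777) and -0.15 (adjusted p = 0.538). Bmp4 had a mean of only 41.3 raw counts, from 12 to 73, and was under the limit of 50 for testing. In a fit without that limit its changes were -0.22 (adjusted p = 0.793) and 0.30 (adjusted p = 0.720).

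Between 304Q/304Q and WT/WT mice, no gene of the set passed the test at either age. At 2 months 0 of 9 genes passed, against 0.0494% of all genes, and 0 had an unadjusted p under 0.05, against 5.55%. Their log2 differences ran from -0.17 for Gpr17 to 0.19 for Enpp6. A difference under 0.15 in size was found for 7 of 9 genes, as for 81.4% of all genes. At 12 months 0 of 9 genes passed by edgeR, against 12.5% of all genes, and 5 of 9 differed by less than 0.15, as did 57.6% of all genes. In both ages the 2 genotypes overlapped for all 10 genes, where 1.05% of all genes at 2 months and 8.94% at 12 months did not overlap. Without the 6 libraries with choroid plexus RNA, 0 genes passed as well. That fit kept 5 WT/WT and 4 304Q/304Q mice of 2 months and only 2 and 3 of 12 months, too few to show small differences at 12 months.

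At 12 months, 4 genes had an unadjusted p under 0.05 in edgeR, 3 with higher and 1 with a lower mean in 304Q/304Q mice, and 27.3% of all genes had one. Gpr17, with the values given above, differed by 0.35 (SE 0.141, adjusted p = 0.107), a fold of 1.27 with a 95% interval from 1.04 to 1.56. Enpp6 in 304Q/304Q mice of 12 months had 138, 196, 178, 118 and 116 normalized counts, of which 3 lay above the highest WT/WT mouse and 2 among the WT/WT values. The difference was 0.42 (SE 0.193, adjusted p = 0.154), a fold of 1.34 from 1.02 to 1.77. Tnr differed by 0.16 (SE 0.0741, adjusted p = 0.172), with 4 of the 5 304Q/304Q mice above all WT/WT mice. Itpr2 had 302, 302, 294, 264 and 329 normalized counts in WT/WT and 221, 222, 240.1, 253 and 301 in 304Q/304Q mice. Here 4 of the 5 304Q/304Q mice lay below all WT/WT mice and the fifth among them, and the difference was -0.27 (SE 0.117, adjusted p = 0.140).

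These 4 differences use the same WT/WT mice of 12 months as the change with age in WT/WT mice, so the values of both comparisons are not independent. Leaving out replicate 1 of the 304Q/304Q mice of 12 months, whose Gpr17 count of 134 was the lowest of its group, gave 0.44 with an adjusted p of 0.0411 for Gpr17. Removal of the GC and length trend gave -0.35 with an adjusted p of 0.0476 for Itpr2. Without the 6 libraries with choroid plexus RNA, which left 2 WT/WT and 3 304Q/304Q mice of 12 months, Itpr2 was at -0.11 (adjusted p = 0.735). The remaining 5 tested genes had differences from -0.13 for Vcan to 0.08 for Ptprz1 at 12 months. For Pdgfra the interval ran from 0.917-fold to 1.18-fold, and for Bcas1 from 0.942-fold to 1.18-fold. Bmp4 had 12.8 to 72.3 normalized counts in WT/WT and 34.1 to 69.0 in 304Q/304Q mice of 12 months, a difference of 0.56 in the fit without the limit (SE 0.316, adjusted p = 0.381).

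**Figure D4:**
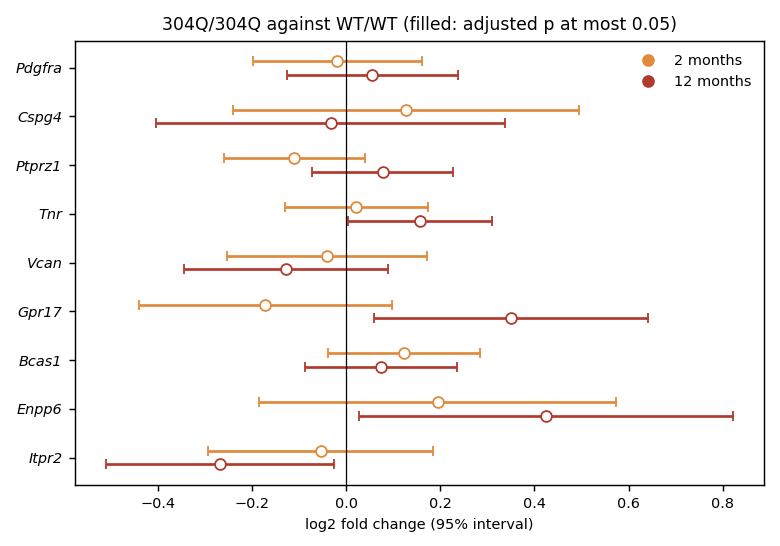
Log2 difference of 304Q/304Q from WT/WT mice for the 9 genes tested, with its 95% interval, at 2 and at 12 months. No point is filled, since no gene reached an adjusted p of 0.05, and at 12 months the intervals of Tnr, Gpr17 and Enpp6 lie above 0 and that of Itpr2 below it.

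Other genes of the same stages were taken from lists. Of 15 further precursor genes tested, 1 passed for genotype at 12 months, and it was lower in 304Q/304Q mice, where 12.5% of all genes passed and 7.3% were lower, with a median difference of 0.04 beside -0.0039 over all genes and 0.07 over the 9 genes above. The 1 gene was Megf11, which fell by 0.23 (adjusted p = 0.0202). With age 2 of the 15, Megf11 and Emid1, fell in both genotypes, Megf11 by 0.26 and 0.35 and Emid1 by 0.40 and 0.39 in WT/WT and 304Q/304Q mice, with adjusted p from 0.000966 to 0.0294. Of all genes, 7.26% passed for age in 304Q/304Q mice and 11.5% in WT/WT mice. Olig1, Cspg5 and Cacng4, the precursor genes with the highest counts among those that did not pass, had changes between -0.15 and 0.15 with age. Of 11 further premyelinating genes tested, 2 were lower in 304Q/304Q mice at 12 months, as were 7.3% of all genes. Cnksr3 fell by 0.40 (adjusted p = 0.00446) and Myrf, the transcription factor that switches on myelin genes, by 0.21 (adjusted p = 0.0410). Cnksr3 was the 1 gene of the 11 without overlap of the genotypes, beside 8.94% of all genes. With age 1 of these 11, Tmem163, fell in WT/WT mice, by 0.29 (adjusted p = 0.0354), beside 5.42% of all genes lower. In 304Q/304Q mice 0 of 11 passed for age by edgeR, beside 7.26% of all genes. There 3 of the 11 had an unadjusted p under 0.05, and the share of all genes for that is not given here.

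In the 20 genes of mature myelinating oligodendrocytes, 9 were lower and 0 higher in 304Q/304Q mice at 12 months, against 7.3% lower among all genes, and 6 of them were DEGs (3.09% of all genes). The median difference of the 20 was -0.36. At 2 months it was -0.09, and 1 of the 20 passed, lower in 304Q/304Q mice, where 0.0494% of all genes passed. Mobp, a protein of compact myelin, fell from 10971.8 ± 792 to 6294 ± 744 normalized counts (SD, n = 5), by 0.80 on the log2 scale (adjusted p = 1.30e-08). Mbp, a main myelin protein, fell by 0.43 (adjusted p = 0.000426). With age in WT/WT mice, 4 of the 20 mature genes were lower and 2 higher at 12 months, beside 11.5% of all genes that passed. Their median change was -0.11. In 304Q/304Q mice 9 of the 20 were lower with age and 0 higher, beside 7.26% of all genes that passed. There 8 of the 20 were DEGs, beside 2.28% of all genes, and the median change was -0.27. Whether the 10 precursor and premyelinating genes and the mature genes differed in their response was not tested, and the counts and medians stand side by side as a description.

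**Figure D5:**
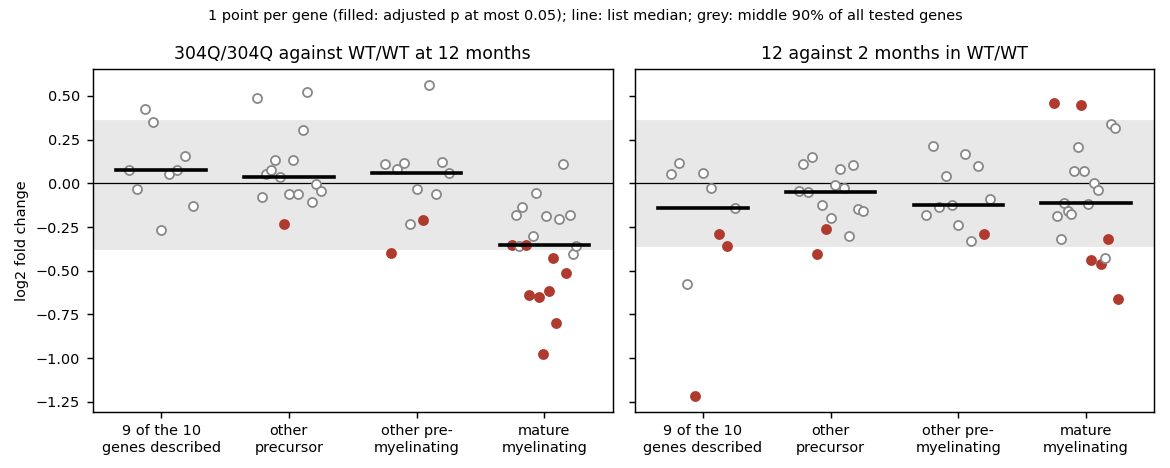
Log2 fold change of each tested gene in 4 lists of the oligodendrocyte lineage, for genotype at 12 months and for age in WT/WT mice, with filled points for an adjusted p of at most 0.05, black lines for list medians and a grey band for the middle 90% of 12153 genes. The mature genes lie mostly below 0 in the genotype panel, with 9 filled of 20, while the 9 tested genes of the set lie on both sides with 0 filled and have Gpr17 as the lowest point in the age panel.

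The 8 genes of dividing cells, Mki67, Top2a and Cdk1 among them, had mean raw counts from 1.90 to 16.4 and were all under the limit for testing, so that division of precursor cells was not measurable at this depth. Of the PDGF ligands and the beta receptor, 4 genes were tested and 0 passed in any comparison by edgeR, where at most 12.5% of all genes passed. For genotype at 12 months 1 had an unadjusted p under 0.05, beside 27.3% of all genes, and 1 had one for age in 304Q/304Q mice. Pdgfa, the ligand of Pdgfra, differed by -0.20 (adjusted p = 0.279) between the genotypes at 12 months. Of 15 tested genes of BMP signalling 2 passed for genotype at 12 months, near the 12.5% of all genes. Smad1, which carries the BMP signal to the nucleus, rose by 0.32 (adjusted p = 0.0379) and Id2, a target of it, fell by 0.26 (adjusted p = 0.0130) in 304Q/304Q mice at 12 months. With age 1 of the 15 passed in each genotype, beside 7.26% of all genes in 304Q/304Q mice and 11.5% in WT/WT mice. Id1, another target, rose by 0.65 (adjusted p = 0.0171) in WT/WT mice and Id2 fell by 0.32 (adjusted p = 0.00423) in 304Q/304Q mice.

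Matrix genes, which work beside Tnr, Vcan and Ptprz1, passed in several cases. Of 8 tested, 3 rose and 2 fell in 304Q/304Q mice at 12 months, where 5.23% of all genes were higher and 7.3% lower. Tnc, another tenascin beside Tnr, rose from 273 ± 55.1 to 435 ± 50.7 normalized counts (SD, n = 5), by 0.67 (adjusted p = 0.000915). The proteoglycan neurocan, Ncan, rose by 0.45 (adjusted p = 0.00113) and Cntn1, a membrane partner of Tnr and Ptprz1, by 0.23 (adjusted p = 0.00369). These 3 of the 8 did not overlap between the genotypes, beside 8.94% of all genes. Hapln4, a link protein of perineuronal nets, and Mdk, the growth factor midkine that binds Ptprz1, fell by 0.22 (adjusted p = 0.0243) and 0.30 (adjusted p = 0.0298). With age in WT/WT mice Tnc fell by 0.84 (adjusted p = 0.000158), Hapln1 by 0.78 (adjusted p = 0.0292), Ncan by 0.32 (adjusted p = 0.0230) and Cntn1 by 0.17 (adjusted p = 0.0335), and Bcan rose by 0.25 (adjusted p = 0.0141), where 11.5% of all genes passed. In 304Q/304Q mice 0 of the 8 passed for age by edgeR, beside 7.26% of all genes, with 0 of the 8 at an unadjusted p under 0.05. The interaction was passed by 0 of 8 in edgeR, with 5 at an unadjusted p under 0.05, beside 1.95% and 15.9% of all genes. The age values and the genotype values again share the WT/WT mice of 12 months.

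Of the 2 relatives of Itpr2, Itpr1, which Purkinje cells hold in large amounts, was lower in 304Q/304Q mice at 12 months, by 0.28 (adjusted p = 0.00548). Itpr3 rose with age by 0.78 (adjusted p = 2.16e-07) in WT/WT and by 1.01 (adjusted p = 1.57e-09) in 304Q/304Q mice, while Itpr2 did not pass in either genotype.

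Markers of other cells that hold some of these RNAs moved in part with the same comparisons. With age in WT/WT mice, where 5.42% of all genes were lower and 11.5% passed, 2 of 10 astrocyte genes, Aqp4 and Slc1a3, were lower. Of the 10, 5 had a higher and 5 a lower mean, with a median change of 0.0069. The summed level of the list, in which Slc1a3 has the highest count, went from 3593 to 4127 CPM at 2 months to 3373 to 3665 CPM at 12 months. Of 6 interneuron genes 1 was higher and 1 lower, with a median change of -0.08, and the summed level went from 1733 to 1806 CPM to 1765 to 1972 CPM. Of 6 granule cell genes 3 were lower and all 6 had a lower mean, with a median change of -0.26, and their summed level went from 5463 to 5964 CPM to 4623 to 4978 CPM. The part of these cells in the falls of Ptprz1 and Tnr was not tested. At 12 months, 3 of the 10 astrocyte genes, 2 of the 6 interneuron genes and 5 of 6 Purkinje cell genes were lower in 304Q/304Q mice, as were 7.3% of all genes. Of the 6 microglia genes 4 were higher with age in each genotype, beside 7.26% of all genes that passed in 304Q/304Q mice and 11.5% in WT/WT mice, with summed levels of 88.5 to 103 CPM at 2 months and 118 to 162 CPM at 12 months. Of 7 tested pericyte genes 0 passed in any comparison by edgeR, where at most 12.5% of all genes passed, with at most 1 of the 7 at an unadjusted p under 0.05. Their summed level lay between 243 and 309 CPM in every mouse. Of 7 tested fibroblast genes only Col3a1 passed in any comparison by edgeR, which was lower with age in WT/WT mice, as were 5.42% of all genes. For age in 304Q/304Q mice 4 of the 7 had an unadjusted p under 0.05, and the share of all genes for that is not given here. The changes of the 7 ran from -0.60 to 0.56 in that comparison.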

How the data were processed

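Per the labels and the study's methods, cerebella were kept in RNAlater, total RNA was enriched for polyA RNA and stranded libraries were made. The authors aligned the reads with STAR (version 2.4.5b in the processing notes, a different one in the methods) to GRCm38 with Ensembl annotation, used Rsubread for counting and deposited whole-number counts per gene, not normalized. The setting for strand is not given in the sources used here. The study tested with DESeq2 and surrogate variables and left out genes under 50 reads.

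The deposited counts were scaled by TMM in edgeR 4.0.16 (R 4.3.3). Genes whose mean over the 20 libraries reached 50 counts, 12153 genes with 99.3% of all counts, were fitted in 1 quasi-likelihood model with 4 groups and 16 residual degrees of freedom, and p-values were adjusted over all of them (Benjamini-Hochberg). The common biological coefficient of variation was 0.113. Log2 CPM used a prior count of 2. Exon lengths, positions and symbols came from GENCODE M21 (GRCm38), which named 29150 IDs. Values per kilobase use the union of exons. Fits were tested on simulated data.

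The 10 genes, the lists, the tests and the alternatives were chosen with earlier results of these data known. Named are all 10 genes, listed genes that passed in a genotype or age comparison, up to 3 others per list by mean count, up to 6 mature genes by mean count, and the 3 genes with the most alike profile. As alternatives, DESeq2 1.42.0 was run plain and with 3 surrogate variables (sva 3.50.0), and edgeR with surrogate variables, with DESeq2's size factors, with other filters, on the compared groups alone, with a replicate block and without each library in turn. Removal of GC and length trends, of libraries with choroid plexus RNA and thinning were added after the data were seen. The values of 1 mature gene that the rule would name are left out.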

Additional observations from a re-analysis of the deposited data

How the results depend on the processing

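The falls of Gpr17 with age passed in both genotypes under all 11 alternatives and without any 1 of the 20 libraries, with log2 changes from -1.28 to -1.09 in WT/WT and from -0.81 to -0.60 in 304Q/304Q mice. For genotype at 12 months the number of genes passed was 0 to 1 over left-out libraries (1 being Gpr17 without replicate 1 of the 304Q/304Q mice of 12 months) and 1, Itpr2, with the GC and length trend removed, a setting chosen after seeing the data. For age in 304Q/304Q mice it was 1 to 2 over left-out libraries and 2, Gpr17 and Tnr, in DESeq2, in DESeq2 or edgeR with 3 surrogate variables, in the fit of only the groups compared and with the GC and length trend removed. The 4 libraries whose absence gave 2 were replicates 1 and 4 of WT/WT and replicate 4 of 304Q/304Q mice at 2 months and replicate 5 of 304Q/304Q mice at 12 months. For age in WT/WT mice it was 3 to 4 over left-out libraries and 2 to 4 over the other alternatives. It stayed at 0 for genotype at 2 months and for the interaction. Of 1386 values of single genes, 3 lost and 20 gained a call, and 0 called values changed direction, while 60 values called in neither fit changed sign.

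With the replicate number as a block, 0 genes passed for genotype at either age, 3 for age in WT/WT, 1 for age in 304Q/304Q mice and 0 for the interaction. Samples of the same number did not deviate together throughout, with correlations from -0.32 to 0.55, and in the comparison with most matches 2 of 5 samples correlated best with their own number.

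Over all genes, the number passed moved by more than 1.5 times between settings. It ran from 1 to 52 for genotype at 2 months, from 644 to 2070 at 12 months, from 717 to 2540 for age in WT/WT, from 438 to 1659 for age in 304Q/304Q mice and from 87 to 555 for the interaction. Depth limits Bmp4 and the cell cycle genes, and Cspg4 and Enpp6 had the largest standard errors of the 9 genes tested.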

Other observations

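Summed over the 10 genes, the level was 807 to 987 CPM in WT/WT and 847 to 917 CPM in 304Q/304Q mice at 2 months, and 709 to 806 CPM in WT/WT and 761 to 859 CPM in 304Q/304Q mice at 12 months. The ages did not overlap in WT/WT mice, by less than 1 CPM, and overlapped in 304Q/304Q mice. Since Ptprz1, Bcas1 and Tnr have most of the counts, this sum mainly follows them. The 16 further precursor genes summed to 634 to 684 CPM in WT/WT mice at 2 months and to 591 to 656 CPM at 12 months. The 20 mature genes summed to 5813 to 6594 CPM in WT/WT and 3849 to 5254 CPM in 304Q/304Q mice at 12 months, without overlap. At 2 months they summed to 6220 to 7053 CPM and 5393 to 6090 CPM, also without overlap. In 40 combinations of gene and group, Dixon's criterion found 0 mice that stood apart from the rest of their group.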
